A study of Homo sapiens with 6 samples.

Results

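The Hippo pathway genes and secondary YAP target genes described here are 32 genes chosen by name from the 29790 genes of an RNA-seq table, and all 32 were found in it. A375 is an established human melanoma cell line with an activating BRAF mutation. All libraries came from this line, grown in serum-containing medium. The 3 control libraries came from untreated cells and the 3 fluvastatin libraries from cells given 3 µM of the drug for 24 h, with replicates numbered 0, 1 and 2 in each group. Fluvastatin is a statin, which inhibits the first committed enzyme of the mevalonate pathway. The comparison asked which of these transcripts differed between treated and untreated cells. The treated samples are given as triplicates, but separate dishes or cultures are not named. The p-values therefore rest on the spread among these 6 libraries alone, and that spread may be technical. Both groups are 1 line at 1 dose and 1 time, and the controls are described as untreated.

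The Hippo pathway is a kinase cascade. The kinases STK3 and STK4 (also called MST2 and MST1), with the scaffold SAV1, activate LATS1 and LATS2 together with their MOB1 partners. LATS kinases phosphorylate the transcriptional coactivators YAP1 and WWTR1 (also called TAZ), which are then held in the cytoplasm or degraded. Unphosphorylated YAP1 and WWTR1 enter the nucleus and bind TEAD factors, which carry them to DNA. The cascade regulates these proteins mainly by phosphorylation and location, which RNA levels do not measure. Tension in the actin cytoskeleton is a known input to YAP1 and WWTR1.

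Levels are in FPKM, fragments scaled to transcript length and to the library's mapped fragments, so they are per length and can be compared between genes. A gene was tested if it reached 1 FPKM in 3 or more libraries. Differences were tested on log2(FPKM + 1) with limma across all 14344 such genes, and a gene is said to have risen or fallen when its Benjamini-Hochberg adjusted p over all of them was below 0.05. Log2 fold changes are on that scale, fluvastatin minus control, and understate the change of low genes. Of the 32 members, 31 were tested, and these were at or above 1 FPKM in every library. AMOT was the untested member, at 0.522, 0.507 and 0.780 FPKM in controls 0, 1 and 2 and 0.497, 0.274 and 0.310 FPKM in the fluvastatin libraries.

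The secondary targets all passed the test, and the kinase cassette and the coactivators did not. Of 31 members tested, 6 rose, 9 fell and 16 did not pass, so 48.4% passed, against 27.7% of all genes tested (14.1% rose and 13.6% fell). The median log2 fold change of the members was -0.08, beside -0.01 over all genes, and their median absolute change was 0.37, beside 0.26. All 9 secondary targets passed, 6 of them lower and 3 higher, and 2 of 5 tested binding partners and inhibitors fell while 1 rose. None of the 7 genes of the kinase cassette and neither coactivator passed. In 21 of the 31 tested members the 3 fluvastatin libraries lay entirely above or below the 3 controls, 9 above and 12 below. The same held for 44.8% of all genes tested (21.9% above and 22.9% below). In AMOT, untested, the fluvastatin libraries also lay below the controls.

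**Figure D1:**
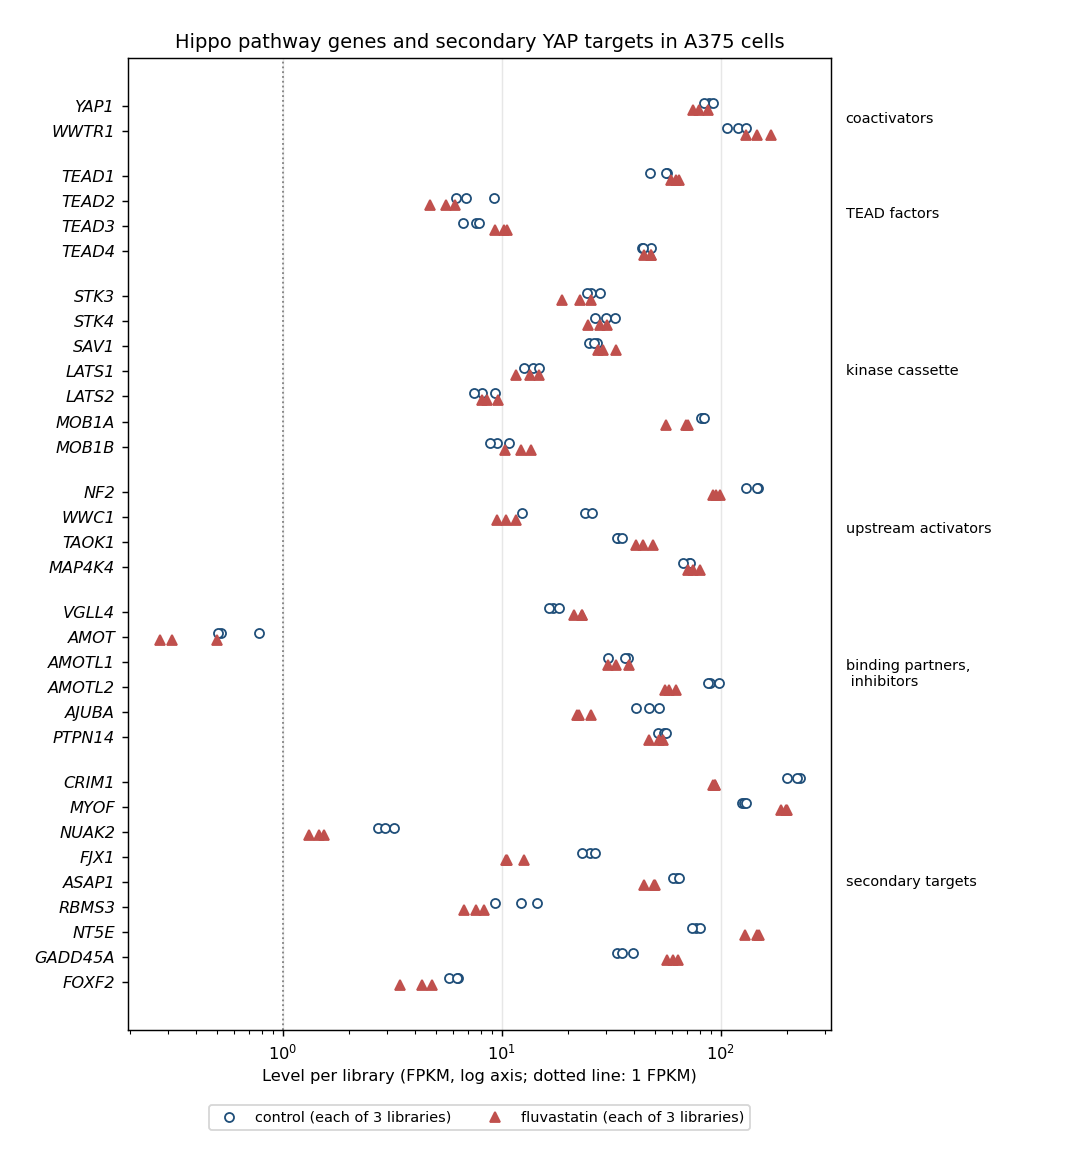
Level of each of the 32 genes in each library, in FPKM on a log axis, grouped by role. Open circles are the 3 control libraries and triangles the 3 fluvastatin libraries. AMOT lies below 1 FPKM, and CRIM1, FJX1, NUAK2 and AJUBA lie well to the left of their controls after fluvastatin.

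The treated libraries were the deeper ones. Depth relative to control replicate 0, read from the spacing of low values, was 1.19 in control replicate 1 and 0.965 in control replicate 2. It was 1.28, 1.51 and 1.40 in fluvastatin replicates 0, 1 and 2. Depth and treatment cannot be told apart, and with depth as a covariate 0 of the 31 members and 71 of all genes passed. Every one of the 15 called members kept its sign there, with the lowest adjusted p at 0.0645 for FJX1. Among lineage markers SOX10 was at 23.3 ± 2.99 FPKM (SD, n = 3) in controls and 72.0 ± 4.33 after fluvastatin, MITF at 7.18 ± 0.556 and 6.68 ± 0.505, and the pigment genes PMEL and DCT were below 1 FPKM in both groups. NGFR also rose, from 16.75 ± 2.05 to 25.8 ± 1.85 FPKM (adjusted p = 0.0122), and SOX9 fell from 41.9 ± 0.271 to 24.1 ± 0.946 FPKM (adjusted p = 0.00142). MLANA and TYR were looked for by symbol and not found among the 29790 genes. The fibroblast list summed to 9.54 to 12.9 FPKM in controls and 5.23 to 7.55 after fluvastatin, nearly all of it COL1A1, which fell (adjusted p = 0.0177, and 0.0553, 0.0585 and 0.0589 without control replicate 1 or fluvastatin replicate 0 or 2). The 4 endothelial genes summed to 0.345 to 0.382 and 1.30 to 1.61 FPKM, with CDH5 and VWF near 0. Most of that sum was KDR, which rose from 0.293 ± 0.0297 to 1.345 ± 0.165 FPKM (adjusted p = 0.0015). The 5 epithelial genes summed to 481 to 548 and 435 to 484 FPKM, nearly all KRT8 and KRT18, with EPCAM and CDH1 near 0. Within that sum KRT8 rose from 63.1 ± 4.7 to 91.5 ± 5.35 FPKM (adjusted p = 0.00977) and KRT18 fell from 455.1 ± 33.9 to 360.2 ± 23.2 FPKM (adjusted p = 0.0457). The KRT18 call was lost without any 1 of 5 libraries, all but control replicate 2 (adjusted p up to 0.135). CD68, the 1 leukocyte marker found of 4 looked for by symbol, was at 27.4 ± 2.57 and 43.2 ± 2.18 FPKM. The part of these markers in the results below was not tested. In bulk RNA, fewer cells that make a transcript and less transcript per cell cannot be told apart.

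The coactivators were well expressed and neither passed. YAP1 (chromosome 11, 102110461 to 102233423, plus strand, GRCh38, as are the positions below) was at 88.4, 91.6 and 83.6 FPKM in controls 0, 1 and 2 and at 74.5, 79.5 and 87.3 FPKM after fluvastatin. The groups overlapped, and the log2 fold change was -0.13 ± 0.10 (SE; 95% interval -0.36 to 0.10; adjusted p = 0.361). WWTR1 (chromosome 3, 149517235 to 149736714, minus strand) had control levels of 119.4, 129.7 and 106.3 FPKM and treated levels of 146.4, 168.9 and 130.7 FPKM. Every treated library lay above every control, with a log2 fold change of 0.32 ± 0.13 (SE; interval 0.02 to 0.63; adjusted p = 0.110). WWTR1 was higher than YAP1 in all 6 libraries. YAP1 made up 42.6%, 41.4% and 44.0% of the summed pair in controls and 33.7%, 32% and 40.1% after fluvastatin, without overlap between the groups. That gave p = 0.1 by an exact two-sided permutation test, the smallest that 3 against 3 libraries allow, and 0.189 adjusted over the 17 family sums and shares tested in this way.

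TEAD1 and TEAD4 supplied most of the TEAD transcripts. TEAD1 was at 53.3 ± 5.10 FPKM in controls and 62.0 ± 2.5 FPKM after fluvastatin (SD, n = 3), and TEAD4 at 45.2 ± 2.49 and 46.8 ± 1.81 FPKM. In the controls the ranges of these paralogues overlapped, as did those of TEAD2 and TEAD3, which were several times lower. TEAD3 (chromosome 6, 35473597 to 35497076, minus strand) was the member of the family that rose. It was at 7.62, 7.89 and 6.65 FPKM in controls 0, 1 and 2 and at 10.2, 10.6 and 9.25 FPKM after fluvastatin, with no overlap (log2 fold change 0.40 ± 0.10, adjusted p = 0.0286). The TEAD3 call did not hold without control replicate 0, 1 or 2 (adjusted p = 0.0600, 0.0525 and 0.0638) or without fluvastatin replicate 0 or 1 (0.0892 and 0.0861).

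TEAD2 went the other way without passing. It was at 9.24, 6.17 and 6.84 FPKM in controls and 4.68, 6.09 and 5.54 FPKM after the drug, and its log2 fold change was -0.38 ± 0.16 (adjusted p = 0.127). TEAD1 was at 56.5, 55.9 and 47.4 FPKM and then at 62.6, 59.2 and 64.1 FPKM (0.22 ± 0.10, adjusted p = 0.157). TEAD4 was at 48.0, 43.5 and 43.9 FPKM and then at 47.9, 47.7 and 44.7 FPKM (0.05 ± 0.09, adjusted p = 0.709). The family sum was 113.3 ± 8.32 FPKM in controls and 124.2 ± 1.04 FPKM after fluvastatin, and within it TEAD2 went from 6.53% ± 1.09 to 4.38% ± 0.603 and TEAD3 from 6.53% ± 0.374 to 8.07% ± 0.541. The groups did not overlap in any of these 3 values (each p = 0.1 by the exact permutation test, 0.189 adjusted).

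**Figure D2:**
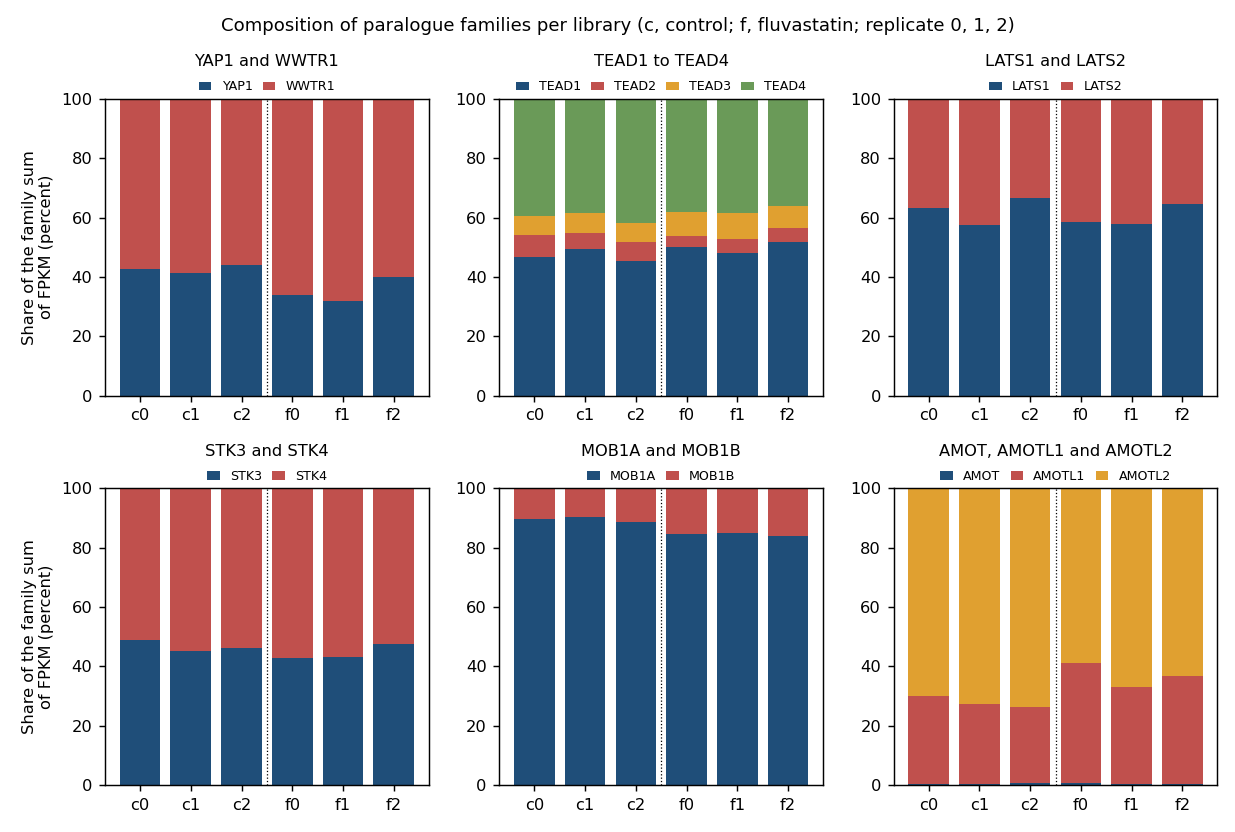
Share of each paralogue in the summed FPKM of its family, in percent, in each library (c, control; f, fluvastatin; numbers are replicates). The AMOTL1 segment is larger in the 3 fluvastatin libraries (32.6% to 40.4%) than in the 3 controls (25.6% to 29.6%), and the YAP1 and MOB1A segments are smaller.

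TEAD factors bind DNA at a core that reads GGAATG, or CATTCC on the other strand, and YAP1 and WWTR1 act at distant enhancers as well as at promoters. RefSeq promoter windows, from 250 bases before to 50 after an annotated start on GRCh38.p14, were matched for 26 of the 32 members, some with several starts. The core was present on either strand in 7 of their 39 windows (17.95%), each of a different gene, and in 14.03% of all 35116 windows. Of the 9 members that fell, 7 had a window and 4 of these held the core (AJUBA, AMOTL2, FOXF2 and NUAK2). Of the 6 that rose, 5 had a window and 0 held it, and of the 16 that did not pass, 13 had a window and 3 held it (LATS2, PTPN14 and YAP1). These counts are per gene, a gene counting if any of its windows held the core. The same share over all genes was not computed, and the difference between outcomes was not tested. Stretches around each match are shown 5′ to 3′ on the gene's own strand, with the core in capitals, because they show where the factor's known letters stand in genes of the pathway with different responses.
AJUBA: gggaagttggctGGAATGaagccaaagcaa
AMOTL2: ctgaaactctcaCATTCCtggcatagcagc
FOXF2: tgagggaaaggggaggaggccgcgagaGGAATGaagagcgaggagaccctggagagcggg
NUAK2, distal: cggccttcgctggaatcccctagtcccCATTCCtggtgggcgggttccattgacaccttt
NUAK2, proximal: ttataacaacttGGAATGctgtgctttact
LATS2: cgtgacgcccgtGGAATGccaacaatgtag
PTPN14: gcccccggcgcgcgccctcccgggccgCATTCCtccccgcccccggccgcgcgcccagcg
YAP1: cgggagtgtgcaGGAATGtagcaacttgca

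The stretches lie at chr14:22976884-22976913 (AJUBA, minus strand), chr3:134374499-134374528 (AMOTL2, minus), chr6:1389353-1389412 (FOXF2, plus) and, for NUAK2, chr1:205321910-205321969 and chr1:205321746-205321775 (minus). Those of the genes that did not pass lie at chr13:21061560-21061589 (LATS2, minus), chr1:214551770-214551829 (PTPN14, minus) and chr11:102110273-102110302 (YAP1, plus). The matches began 59 bases before the start in AJUBA, 69 in AMOTL2, 196 in FOXF2, 197 and 18 in NUAK2, 200 in PTPN14 and 162 in YAP1, and 9 bases after it in LATS2. Those of AJUBA, AMOTL2 and PTPN14 and the proximal one of NUAK2 lie inside the GENCODE genes, whose 5′ ends are at 22982642, 134375479, 214552449 and 205321791. AJUBA and AMOTL2 have 2 windows each, of which 1 holds the match. GENCODE exons overlap or lie near the stretches of AJUBA, AMOTL2, YAP1, LATS2 and proximal NUAK2. NUAK2 was the member with more than 1 match. A match of 6 letters is a description and does not show binding, and which start A375 cells use was not analysed here.

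**Figure D3:**
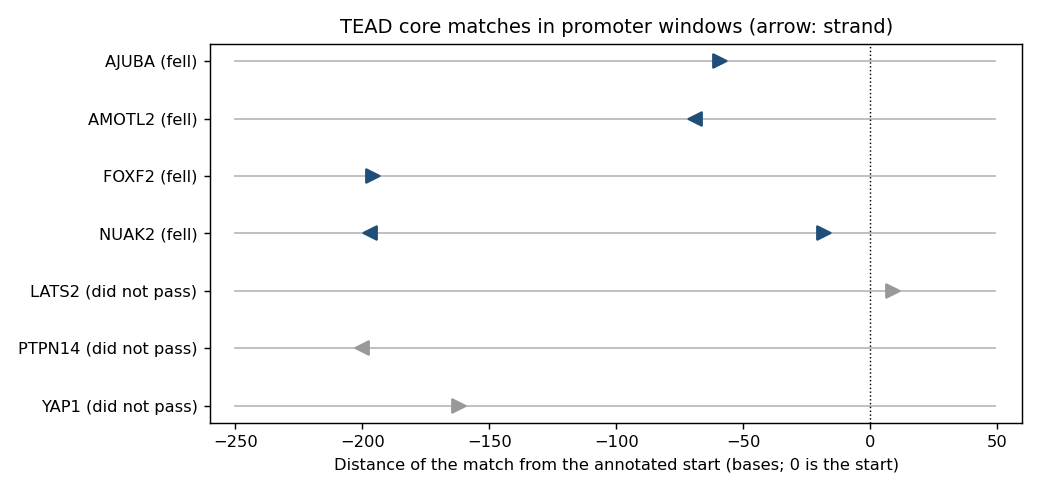
Position of each TEAD core match in the promoter windows of the 7 genes that hold one, in bases from the annotated start, with arrows for the strand and the result of the expression test beside each name. The 4 genes that fell carry 5 matches between 197 and 18 bases before the start.

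None of the 7 genes of the kinase cassette passed. LATS1, a kinase that phosphorylates YAP1 and WWTR1 directly, was at 13.9, 12.6 and 14.7 FPKM in controls 0, 1 and 2 and at 13.4, 11.6 and 14.8 FPKM after fluvastatin (log2 fold change -0.05 ± 0.11; 95% interval -0.32 to 0.23; adjusted p = 0.790). LATS2, its paralogue and itself a YAP target in many cells, was at 8.11, 9.29 and 7.44 FPKM and then at 9.55, 8.54 and 8.09 FPKM (0.07 ± 0.11; interval -0.19 to 0.33; adjusted p = 0.681). Both genes overlapped between the groups. Their sum was 22.01 ± 0.144 FPKM in controls and 22.0 ± 1.6 FPKM after the drug.

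STK3 was at 25.98 ± 1.95 FPKM in controls and 22.3 ± 3.37 FPKM after fluvastatin (SD, n = 3), and STK4 at 29.7 ± 3.09 and 27.6 ± 2.79 FPKM. SAV1, the scaffold that joins them to LATS, was at 26.2 ± 1.18 and 29.9 ± 3.00 FPKM. The 3 adjusted p-values were 0.259, 0.574 and 0.237. MOB1A, which binds and activates LATS, came nearest to the threshold, at 83.2, 80.7 and 83.7 FPKM and then at 56.0, 69.2 and 70.5 FPKM. All treated libraries of MOB1A lay below all controls, with a log2 fold change of -0.34 ± 0.11 (adjusted p = 0.0621, and 0.0434 and 0.0303 with genes under a mean of 5 FPKM left out and with a trended, robust variance). Its paralogue MOB1B was at 9.69 ± 0.977 and 12.05 ± 1.61 FPKM (0.28 ± 0.12, adjusted p = 0.141).

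MOB1A held 89.7%, 90.2% and 88.6% of the MOB1 sum in controls and 84.4%, 85.0% and 83.9% after fluvastatin, without overlap (p = 0.1, exact permutation test, 0.189 adjusted). The coding sequences of the pair were 79.5% identical over 648 aligned bases in GENCODE, with a longest identical stretch of 17 bases. Read length was not analysed here, and whether reads were split between the 2 genes was not tested. MOB1B also shares exon sequence with DCK on the same strand, which was at 19.6 ± 2.36 and 18.01 ± 3.0 FPKM. Identity was lower in the other families, at 76.3% for STK3 and STK4, 64.9% for LATS1 and LATS2, 70.5% for YAP1 and WWTR1 and at most 75% among the TEAD genes. Longest identical stretches were longer in some of them, at 56 bases for TEAD3 and TEAD4, 32 for TEAD2 and TEAD3, 26 for TEAD1 and TEAD4 and 23 for STK3 and STK4. Whether reads were split in these families, TEAD3, which rose, included, was not tested either.

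Upstream of the kinases, NF2 fell and TAOK1 rose. NF2 encodes merlin, a tumour suppressor at the cell cortex that recruits LATS kinases to the membrane. It was at 148.1, 146.1 and 129.9 FPKM in controls 0, 1 and 2 and at 91.7, 99.4 and 95.3 FPKM after fluvastatin (chromosome 22, 29603556 to 29698598, plus strand). That is 1.48-fold lower, with no overlap and a log2 fold change of -0.56 ± 0.09 (adjusted p = 0.00694). TAOK1, a kinase that activates STK3 and STK4, was at 33.8, 33.6 and 35.4 FPKM and then at 44.1, 41.1 and 48.9 FPKM, which is 1.31-fold higher (0.37 ± 0.09, adjusted p = 0.0293). The TAOK1 call was lost without control replicate 0, 1 or 2 (0.0766, 0.0862 and 0.0503) and without fluvastatin replicate 0 or 2 (0.0803 and 0.0840), whereas NF2 passed without any 1 library.

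WWC1, also called KIBRA, works with NF2 to switch on LATS. Its level was 23.9 and 25.7 FPKM in controls 0 and 1 but 12.4 FPKM in control replicate 2, and 9.52, 10.4 and 11.6 FPKM after fluvastatin. All treated libraries lay below all controls, but with this spread the log2 fold change was -0.85 ± 0.26 (adjusted p = 0.0532). Without control replicate 2 it was -1.17 ± 0.11 (adjusted p = 0.00409). MAP4K4, which can phosphorylate LATS in parallel to STK3 and STK4, was at 70.4 ± 2.54 and 75.1 ± 4.89 FPKM (adjusted p = 0.492).

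Among proteins that bind YAP1, TEAD factors or LATS, AJUBA and AMOTL2 fell and VGLL4 rose. AJUBA is a LIM-domain protein of cell junctions that holds LATS inactive under tension. It was at 40.8, 52.0 and 47.1 FPKM in controls 0, 1 and 2 and at 22.4, 25.5 and 22.0 FPKM after fluvastatin (chromosome 14, 22971174 to 22982642, minus strand). Every treated library was well below every control, at 2.00-fold lower (log2 fold change -0.97 ± 0.12, adjusted p = 0.00254). Another gene annotated as protein-coding, RP11-298I3.5 in the table, shares exon sequence with AJUBA on the same strand and fell from 12.65 ± 1.86 to 6.42 ± 2.39 FPKM (adjusted p = 0.0320), so reads of the 2 genes may be mixed.

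AMOTL2, an angiomotin family protein that tethers YAP1 at junctions and is itself a YAP target, was at 89.5, 98.4 and 87.7 FPKM in controls (chromosome 3, 134355874 to 134375479, minus strand). After fluvastatin it was at 55.6, 62.6 and 57.8 FPKM, 1.57-fold lower (-0.64 ± 0.09, adjusted p = 0.00466). Its paralogue AMOTL1 was at 37.7, 36.5 and 30.5 FPKM and then at 38.1, 30.4 and 33.2 FPKM, with overlap and a log2 fold change of -0.04 ± 0.13 (95% interval -0.34 to 0.26; adjusted p = 0.838). The angiomotin sum went from 127.4 ± 8.21 to 92.9 ± 1.47 FPKM, and AMOTL2 from 72.2% ± 1.91 to 63.2% ± 4.01 of it, both without overlap (p = 0.1 each, exact permutation test, 0.189 adjusted). AMOT supplied under 1% of the sum in every library.

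VGLL4, which competes with YAP1 for TEAD factors and so represses their targets, was at 17.1, 16.4 and 18.2 FPKM in controls and 23.2, 23.2 and 21.4 FPKM after fluvastatin (1.31-fold higher, log2 fold change 0.37 ± 0.09, adjusted p = 0.0216). The groups did not overlap. The VGLL4 call was lost without control replicate 0 or 1 (0.0598 and 0.0732) and without fluvastatin replicate 0 or 1 (0.0744 and 0.0672). VGLL4 shares exon sequence with ATG7 on the opposite strand, at 32.1 ± 0.535 and 28.2 ± 5.77 FPKM, and whether reads were counted by strand is not given in the sources used here. PTPN14, a phosphatase that retains YAP1 in the cytoplasm and belongs to the YAP target signature, was at 54.3 ± 2.26 and 51.4 ± 3.85 FPKM (adjusted p = 0.565).

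**Figure D4:**
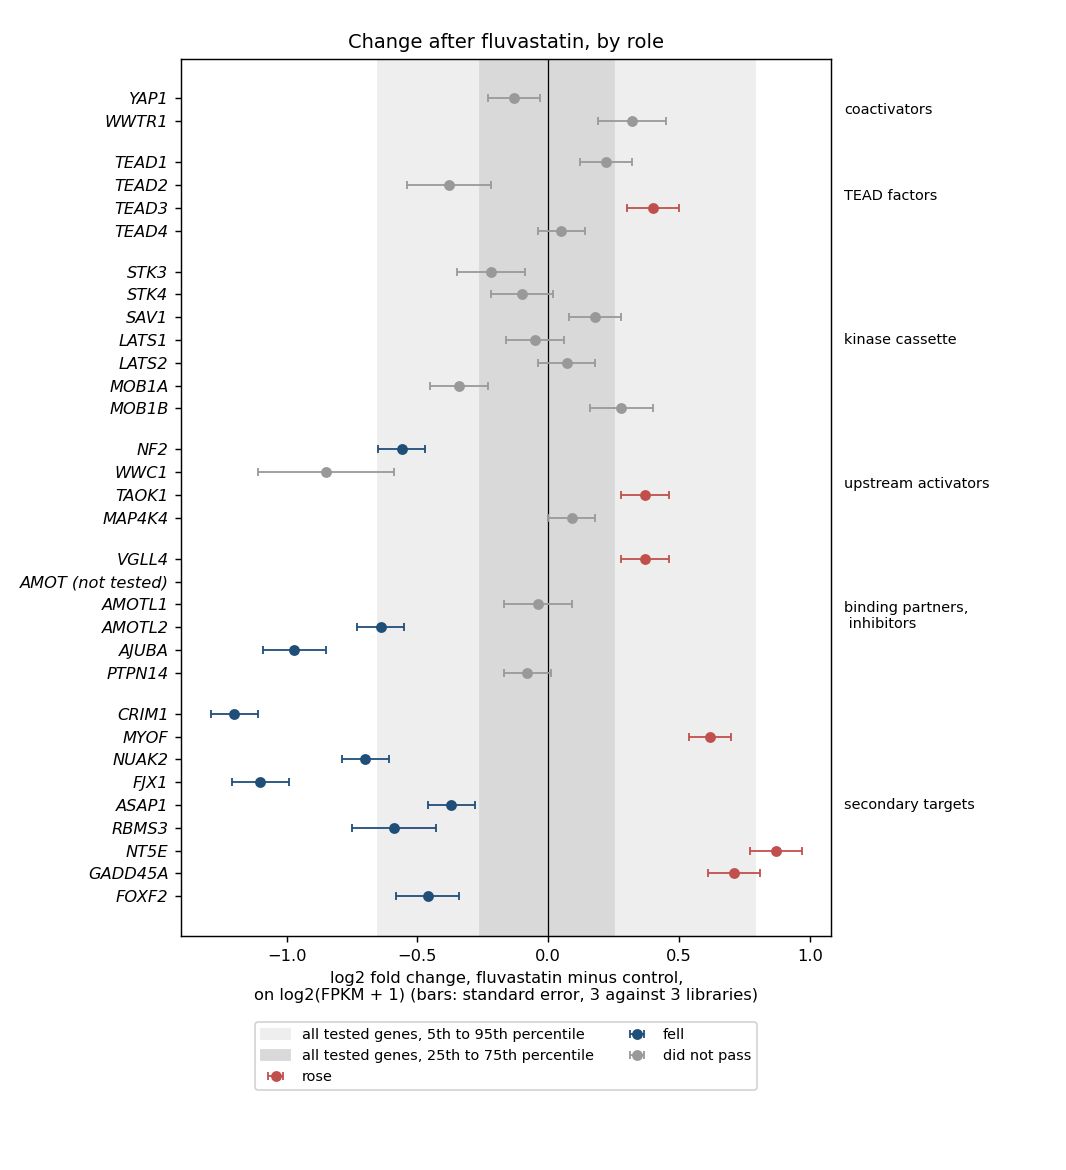
Log2 fold change of each tested gene, fluvastatin minus control on log2(FPKM + 1), with standard errors from 3 against 3 libraries, grouped by role. Grey bands give the 5th to 95th (-0.65 to 0.79) and 25th to 75th (-0.26 to 0.25) percentiles of all tested genes. In the kinase cassette MOB1A (-0.34) and MOB1B (0.28) lie just outside the inner band and the other 5 genes within it, and the secondary targets lie beyond it to either side.

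The secondary targets divided by direction. CRIM1, FJX1, NUAK2, RBMS3, FOXF2 and ASAP1 fell, NT5E, GADD45A and MYOF rose, and the median log2 fold change of the 9 was -0.46. In none of them did the groups overlap. CRIM1, a transmembrane protein that binds growth factors of the BMP family, had the largest fold among the members that fell. It was at 228.5, 221.6 and 200.6 FPKM in controls 0, 1 and 2 and at 92.0, 94.4 and 93.9 FPKM after fluvastatin (chromosome 2, 36355926 to 36551135, plus strand). That is 2.32-fold lower, with a log2 fold change of -1.20 ± 0.09 (adjusted p = 4.45e-04), larger in size than that of 97.5% of tested genes.

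FJX1, a secreted relative of Drosophila four-jointed, a kinase that acts on the protocadherins Fat and Dachsous, was at 25.4, 26.7 and 23.1 FPKM and then at 10.5, 12.6 and 10.5 FPKM (chromosome 11, 35618419 to 35620868, plus strand). It was 2.24-fold lower (-1.10 ± 0.11, adjusted p = 0.00125). NUAK2, an AMPK-related kinase that can reinforce YAP activity, was low throughout, at 2.71, 2.93 and 3.23 FPKM in controls and 1.54, 1.32 and 1.46 FPKM after the drug. Its fold was 2.05 on the FPKM scale, but its log2 fold change on log2(FPKM + 1) was -0.70 ± 0.09 (adjusted p = 0.00317). With a pseudocount of 0.1 that change was -0.99.

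The other falling targets changed less. ASAP1, which switches off ARF GTPases at focal adhesions, was at 62.8, 60.3 and 64.1 FPKM in controls and 49.5, 44.4 and 50.0 FPKM after fluvastatin (1.30-fold lower, adjusted p = 0.0227). RBMS3, an RNA-binding protein, was at 14.5, 9.26 and 12.2 FPKM and then at 8.24, 7.63 and 6.74 FPKM (1.59-fold lower, adjusted p = 0.0395). FOXF2, a forkhead transcription factor of mesenchyme, was at 6.31, 5.73 and 6.21 FPKM and then at 4.32, 4.78 and 3.44 FPKM (1.46-fold lower, adjusted p = 0.0307).

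Each of these 3 calls was lost on leaving out any of 5 libraries in turn and held without the remaining 1. ASAP1 did not pass without control replicate 0, 1 or 2 (adjusted p = 0.0620, 0.0548 and 0.0544) or fluvastatin replicate 0 or 1 (0.0595 and 0.0683), and passed without fluvastatin replicate 2 (0.0492). RBMS3 did not pass without control replicate 0 or 2 (0.0883 and 0.0904) or fluvastatin replicate 0, 1 or 2 (0.0739, 0.0921 and 0.116), and passed without control replicate 1 (0.0196). FOXF2 did not pass without control replicate 0, 1 or 2 (0.0822, 0.0629 and 0.0709) or fluvastatin replicate 0 or 2 (0.0741 and 0.0686), and passed without fluvastatin replicate 1 (0.0347).

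NT5E rose the most. It encodes CD73, a cell-surface enzyme that makes adenosine, and was at 76.8, 79.9 and 73.5 FPKM in controls 0, 1 and 2 and at 128.2, 145.7 and 149.3 FPKM after fluvastatin (chromosome 6, 85449584 to 85495791, plus strand). The change was 1.84-fold (log2 fold change 0.87 ± 0.10, adjusted p = 0.00174). GADD45A, a stress protein of growth arrest that is also a p53 target, was at 33.7, 35.4 and 39.9 FPKM and then at 60.5, 63.4 and 56.5 FPKM, 1.66-fold higher (0.71 ± 0.10, adjusted p = 0.00399). MYOF, a ferlin of membrane repair, was at 125.3, 126.9 and 130.3 FPKM and then at 198.6, 189.0 and 200.1 FPKM, 1.54-fold higher (0.62 ± 0.08, adjusted p = 0.00289). In each of these 3 genes the lowest treated library was well above the highest control, and each passed without any 1 library.

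These targets, with AMOTL2, LATS2 and PTPN14, are part of a published signature of 22 YAP and TAZ targets. Of its 12 genes among the members 3 rose, 7 fell and 2 did not pass, with a median log2 fold change of -0.42. Of the 20 members outside it, 19 were tested, and 3 rose, 2 fell and 14 did not pass, with a median of -0.04. Over all genes tested 27.7% passed (14.1% rose and 13.6% fell). The difference between these groups of genes was not tested. Of the signature's 10 other genes, 9 were tested, and 1 rose, 4 fell and 4 did not pass (55.6% passed, beside 27.7% of all genes). CYR61 and CTGF, secreted matricellular proteins, and ANKRD1, a nuclear co-factor, had log2 fold changes of -1.94, -1.66 and -2.18, so each was lower by more than any of the members. Tissue factor, F3, was at 6.56 ± 0.907 and 3.62 ± 0.512 FPKM (1.81-fold lower, adjusted p = 0.00944), and IGFBP3, a carrier of insulin-like growth factors, was 2.85-fold higher (adjusted p = 3.30e-04). With depth as a covariate the calls of CYR61, CTGF and ANKRD1 held, and those of F3 and IGFBP3 did not (adjusted p = 0.375 and 0.0673).

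The rest of the pathway was taken from lists of its other branches and of related genes. With depth as a covariate, SFN alone of the called genes in these lists passed, and the losses below leave that fit out. Among 20 tested upstream and polarity genes 2 rose, 2 fell and 16 did not pass, with a median log2 fold change of 0.09. Thus 20% passed, beside 27.7% of all genes tested. The polarity scaffold PARD3 went from 24.1 ± 1.5 to 16.1 ± 0.406 FPKM (adjusted p = 0.00598). WWC2, a paralogue of WWC1, went from 35.6 ± 1.46 to 25.9 ± 0.480 FPKM (adjusted p = 0.00944). The scaffold RASSF1, which binds STK3 and STK4, went up from 7.18 ± 0.521 to 10.8 ± 1.13 FPKM (adjusted p = 0.0139), and the polarity protein PATJ from 3.36 ± 0.626 to 5.24 ± 0.343 FPKM (adjusted p = 0.0251). The RASSF1 call was lost without fluvastatin replicate 0 (0.0507). That of PATJ was lost without control replicate 1 (0.0521) or fluvastatin replicate 0, 1 or 2 (0.0755, 0.0522 and 0.0794), and with no filter (0.0514).

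STRIPAK, the phosphatase complex that opposes STK3 and STK4, had 1 of 15 genes higher (CTTNBP2NL, 1.27-fold) and 1 lower (STRIP2, 1.48-fold), and 13 did not pass. Thus 13.3% passed, beside 27.7% of all genes tested. The CTTNBP2NL call was lost without control replicate 0, 1 or 2 (adjusted p = 0.0684, 0.0793 and 0.0675) or fluvastatin replicate 0 or 2 (0.0992 and 0.0913), and with the replicate block (0.0669). That of STRIP2 was lost without fluvastatin replicate 1 or 2 (0.0519 and 0.0547). Of the 7 tested 14-3-3 proteins, which hold phosphorylated YAP1 in the cytoplasm, 2 rose and 5 did not pass. That share, 28.6%, was near the 27.7% of all genes tested. SFN, the sigma form, went from 11.9 ± 1.52 to 47.8 ± 4.03 FPKM, 4.02-fold higher (adjusted p = 3.30e-04), and YWHAH, the eta form, from 89.9 ± 7.39 to 159.8 ± 3.01 FPKM, 1.78-fold higher (adjusted p = 0.00186). The 14-3-3 transcript with the highest level, YWHAE, was at 684.8 ± 36.0 and 553.6 ± 44.0 FPKM (adjusted p = 0.0564).

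The NDR kinases are relatives of LATS, and their list here also held MOB2 and MOB3 genes. Of 5 genes tested in it, 3 rose and 0 fell (60% passed, beside 27.7% of all genes tested). All 3 were MOB genes, and whether MOB3 proteins act with these kinases was not tested. The kinases STK38 and STK38L did not pass (adjusted p = 0.0658 and 0.484). MOB3C went from 3.72 ± 0.112 to 8.25 ± 0.814 FPKM (2.22-fold, adjusted p = 0.00134), MOB2 from 7.33 ± 0.659 to 10.5 ± 0.127 FPKM and MOB3A from 11.3 ± 1.34 to 16.4 ± 2.08 FPKM. The MOB3A call was lost without control replicate 0 or 2 (0.0713 and 0.0724) or fluvastatin replicate 0, 1 or 2 (0.0684, 0.0812 and 0.0532), and with no filter (0.0619). Of the 10 genes of YAP and LATS turnover and of LIM inhibitors of LATS, 1 rose and 9 did not pass (10% passed, beside 27.7% of all genes). ITCH, a ubiquitin ligase that targets LATS1, was 1.30-fold higher (adjusted p = 0.0463). The ITCH call was lost without control replicate 0 or 1 (0.1 and 0.132) or fluvastatin replicate 0, 1 or 2 (0.139, 0.108 and 0.0593), and with a pseudocount of 0.1, no filter or the replicate block (0.0558, 0.0715 and 0.0900). VGLL3, a TEAD cofactor related to VGLL4, was at 2.52 ± 0.283 and 1.21 ± 0.0386 FPKM, 2.08-fold lower (adjusted p = 0.00390).

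**Figure D5:**
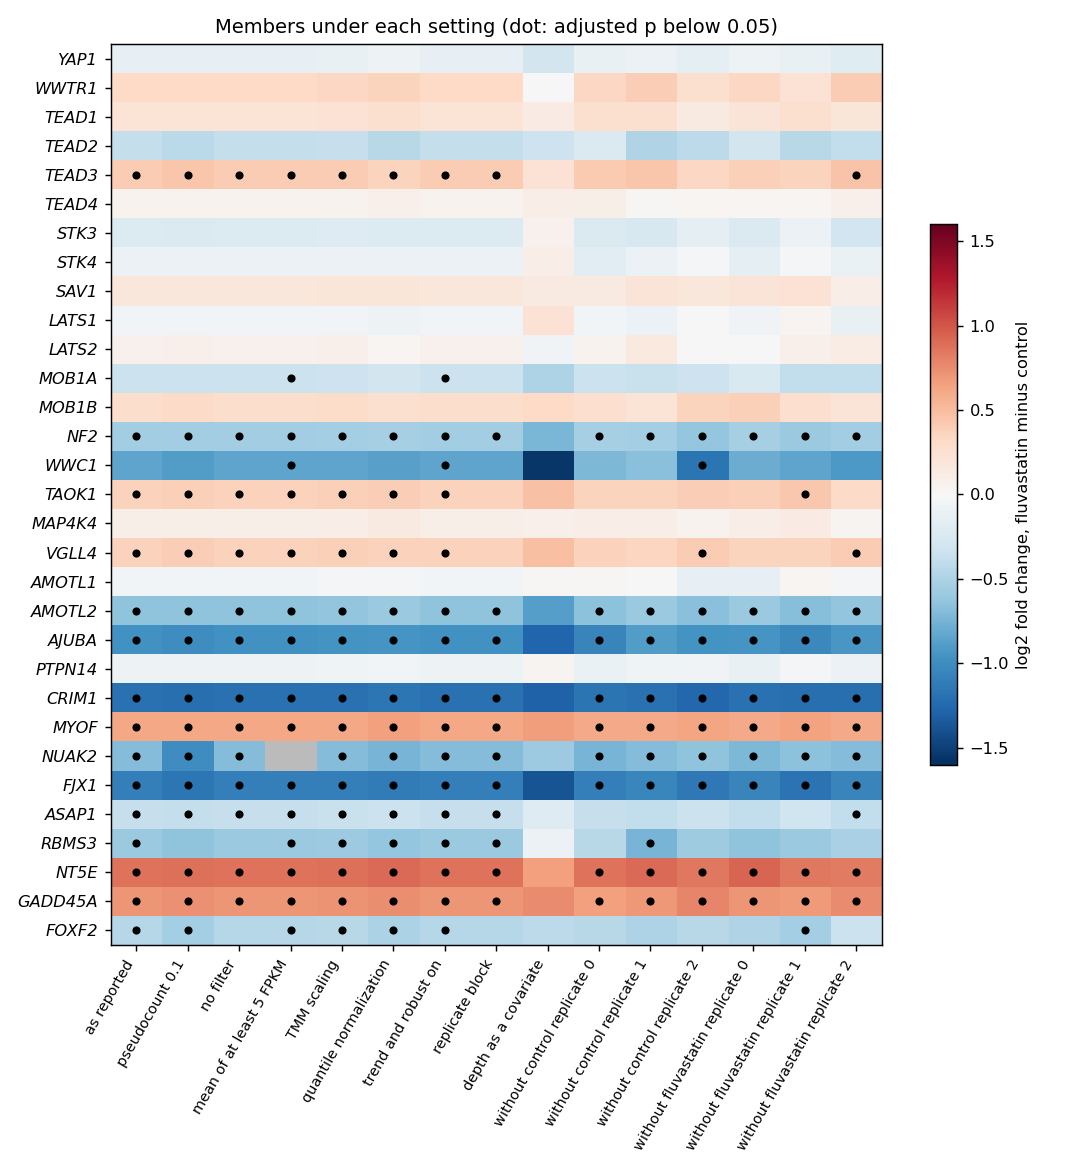
Log2 fold change (colour, fluvastatin minus control) of the 31 tested genes under each setting, with a dot where the adjusted p was below 0.05. In 9 of the 15 called genes the dot is missing only with depth as a covariate or, for NUAK2, where the gene was filtered out (grey). The 6 others lose it without at least 1 library.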

How the data were processed

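RNA-seq libraries of A375 cells, 3 untreated and 3 treated with fluvastatin, were compared. The submitters' processing notes list STAR, Cufflinks and Cuffdiff with hg38; versions, annotation, strand setting and any rescaling are not given in the sources used here. The deposited table names no unit, and its values were taken as FPKM because they are not whole and sum to 686133.2 to 729564.0 per library. Of 29790 identifiers, 29542 matched GENCODE 29 (GRCh38), from which positions and exon overlaps came; promoter windows are RefSeq's. No pair of libraries shared more than 2 identical values above 0.

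The deposited FPKM were tested, two-sided and without a replicate block, on the log2(FPKM + 1) scale by limma (version 3.58.1, R 4.3.3; eBayes with trend and robust off). Family sums and shares had exact permutation tests. FPKM carry no counts, so relative depth was read from the modal ratio of low values in the 11289 genes with a 0. The fits and the depth estimate were tested on simulated data. Intervals are 95% limma intervals. All 32 members were to be named, with values per library for called members and for the coactivators, TEAD and LATS genes, and up to 4 genes with the smallest adjusted p of each other list. Members and lists were chosen with earlier results of these data known. Alternatives covered the pseudocount (0.1), the filter (none, or at least 5 FPKM on average), scaling (trimmed mean of M values, or quantiles), trend and robust variance, a replicate block, depth as a covariate and leaving out each library.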

Additional observations from a re-analysis of the deposited data

How the results depend on the processing

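Of the 15 called members, 9 lost the call only with depth as a covariate and 6 (TEAD3, TAOK1, VGLL4, ASAP1, RBMS3 and FOXF2) also without at least 1 library; none of the 31 tested members changed sign while past the threshold in any of the 15 fits. Depth as a covariate left 71 genes past the threshold of all tested, and 0 members higher and 0 lower. That fit and the fit with the replicate block both have fewer residual degrees of freedom, and the block left 3154 genes. Standard errors were larger with depth (for NF2 0.19, against 0.09 as reported and 0.10 with the block). The cause of the lower count with depth was not tested. Depth and treatment cannot be told apart. Leaving out each library in turn gave 2340 to 3416 called genes in all, 3 to 5 members that rose and 6 to 7 that fell. Without fluvastatin replicate 0 or 2 the total was 2340 and 2641, and without control replicate 0 or 1 or fluvastatin replicate 0 the members that rose were 3. Same-numbered libraries deviated together weakly at most. Correlations of deviations from the group means across genes were -0.002, 0.085 and 0.084 for replicates 0, 1 and 2. The values of replicates 1 and 2 were the highest of any pair of a control and a fluvastatin library, and the lowest was -0.136. Both replicate 0 libraries correlated best with another number. With the replicate block 3154 genes were called against 3971, and 4 members rose and 8 fell, TAOK1, VGLL4 and FOXF2 not passing (adjusted p = 0.0507, 0.0605 and 0.0646). FOXF2 did not pass with no filter (0.0567), nor RBMS3 with no filter (0.0920) or a pseudocount of 0.1 (0.0509). WWC1 passed with a mean of at least 5 FPKM (0.0399), with trend and robust on (0.0361) and without control replicate 2 (0.00409). The share of higher calls was 50.8%, and 81.7% with depth as a covariate. AMOT had an adjusted p of 0.233 with no filter. All 108 recomputed family sums and shares moved by less than the spread between libraries. Leaving out 1 of 3 libraries cannot move a group mean by more than that spread. Only the sums rescaled by the trimmed mean of M values could have failed, so this count says little about stability. Of 196 recomputed counts of the other lists, 162 stayed within 1.5 times. Absolute depth is unknown, so no counting interval is given.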

Other observations

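Other short motifs of factors known to work beside YAP1 and TEAD were looked for in the same promoter windows. The AP-1 motif, TGANTCA, stood in 2 of 39 member windows (5.13%), those of LATS1 and MOB1B, and in 7.71% of all windows. The CArG box of SRF stood in 0 of 39 member windows and in 1.29% of all windows. Outside the members, the TEAD core stood in windows of genes of every outcome. ANKRD1 and WWC2, which fell, held 2 each and RASSF1, which rose, held 1. WTIP held 3, SLMAP 2 and AXL and TAOK3 1 each, and these 4 genes did not pass. WWC1 in control replicate 2 (12.4 FPKM) lay nearer to the fluvastatin libraries (9.52 to 11.6 FPKM) than to the other controls. RPL39P5, a pseudogene on the same strand within AMOTL2, ranged from 0.387 to 5.90 FPKM in controls and from 0.383 to 14.4 FPKM after fluvastatin (adjusted p = 0.417).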
